A study of Mus musculus with 5 samples.

Results

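The ERBB receptors and their ligands were examined in cell lines grown from mouse thyroid tumors. The set was defined by gene symbol as Egfr, Erbb2 and Erbb3 for the receptors and Areg, Ereg, Hbegf, Tgfa, Btc, Nrg1 and Epgn for the ligands, which made 10 of the 17923 genes listed in at least 1 library. All cells carried the BrafV600E oncogene, and the groups differed in Ctnnb1, the gene of β-catenin, which was intact in BVE-Ctnnb1wt (wt, 2 libraries) and deleted in BVE-Ctnnb1null (null, 3 libraries). Both wt libraries came from the line named BVE at passage 20. Thyroid-stimulating hormone (TSH) was absent from wt replicate 1 and present in wt replicate 2. Null replicate 1 was line BVECTN_4 at passage 8 without TSH, null replicate 2 was line BVECTN_4A at passage 11, and null replicate 3 was line BVECTN_5 at passage 7, and the labels of the last pair did not mention TSH. The protocol text gave about 25 passages for wt and 20 for null cells and described growth medium with bovine TSH. The promoter that drove the Braf and Ctnnb1 alleles and the age of the donor mice were not given in the sources used here. Genotype, line and passage therefore cannot be told apart, and a p-value measured the spread between these 5 cultures only. Total estimated counts per library lay between 29360002 and 30713079, so that 3 counts, taken as the detection floor, equaled 0.0977 to 0.102 CPM, a count relative to library size.

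ERBB receptors are tyrosine kinases at the cell surface that pair up when a ligand binds, and they pass the signal on through the RAS to MAP kinase and PI3 kinase cascades. Egfr binds Areg, Ereg, Hbegf, Tgfa, Btc and Epgn, Erbb3 binds neuregulins such as Nrg1 and has a weak kinase of its own, and Erbb2 has no known ligand and serves as the preferred partner of the other receptors. The ligands are made as membrane proteins that ADAM proteases release. In thyroid cancer cells with mutant BRAF, signaling through these receptors is known for its part in the response to BRAF inhibitors.

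Egfr was the member with 2 listed transcripts, a short one of 2678 bases and a long one of 5983 bases. Their coding sequences are shown where they part, because the short form ends before the kinase. In the GENCODE M21 models on GRCm38, both shared their first 1926 coding bases, which encode 642 residues. The short form then read 42 bases of its own in exon 16 of 16, at chr11:16887187-16887228 on the plus strand, and ended at 655 residues. The long form went on in exon 17 of 28, at chr11:16889914-16889955, and reached 1210 residues. The last 30 shared bases are in lower case and the first 42 bases after the split in capitals.
Egfr short: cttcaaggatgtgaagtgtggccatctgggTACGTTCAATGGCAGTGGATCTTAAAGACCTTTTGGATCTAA
Egfr long: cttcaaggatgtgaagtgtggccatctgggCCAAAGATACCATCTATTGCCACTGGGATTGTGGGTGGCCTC

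Promoter sequences from RefSeq (GRCm38.p6, 250 bases before to 50 after the start) were matched for 6 of the 10 members, Egfr, Erbb2, Areg, Tgfa, Btc and Epgn, and not for Erbb3, Ereg, Hbegf and Nrg1. The 150 bases before the start of Areg, chr5:91139449-91139598 on the plus strand, are printed because of a DNA element and the wt values of Areg. Areg was lower in the TSH-treated than in the untreated wt culture. This stretch holds the letters of a cAMP response element, the DNA element of the pathway through which TSH is known to signal. Capitals mark the element.
Areg upstream: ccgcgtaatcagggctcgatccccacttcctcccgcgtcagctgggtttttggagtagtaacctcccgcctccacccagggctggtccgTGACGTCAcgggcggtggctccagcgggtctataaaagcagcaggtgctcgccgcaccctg
The element, TGACGTCA, began at base -61 and was found in 1.79% of 32851 promoters of the same length. It had no match in the other 5 promoters, among them that of Btc, which was also lower in the TSH-treated culture. AP-1 (TGANTCA, 7.81% of promoters) had no match in the 6 promoters, TEAD (GGAATG, 14.7%) had one in Erbb2 at -88 and TCF/LEF (CTTTGA, 16.0%) had one in Epgn at 44. Both strands were searched. A match describes letters in the window and not a used site, and the part of the element in the Areg values was not tested.

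The targeted gene and the cell type were looked at first. Ctnnb1 was listed at 59.29 and 73.75 FPKM (fragments scaled to transcript length and library depth, a level per length) in wt replicates 1 and 2 and at 124.58, 196.26 and 117.82 FPKM in null replicates 1 to 3. On FPKM its level was thus higher in every library labelled null, while in CPM after TMM, a scaling for the composition of each library, the groups overlapped, at 251.1 and 356.4 in wt and 418.2, 572.2 and 343.8 in null. On neither scale was Ctnnb1 lower in null as a group, which goes against the labels, although the values were summed over the whole gene and do not show whether the deleted part was read. The edgeR quasi-likelihood test gave a log2 fold change of 0.55 (SE 0.44, adjusted p = 0.517) for Ctnnb1, and relative to the genes of like transcript length, described below, the fold change was 0.10. Directions given below for null cells hold for the libraries labelled null.

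The libraries labelled null differed widely among themselves in cell type markers. Epcam, an epithelial adhesion protein, was listed at 5.04 and 4.61 FPKM in wt, at 152.05 in null replicate 1 and at 59.60 in null replicate 3. It was not listed in null replicate 2, and a level of 0 stands for this here and below. Cdh1, the epithelial cadherin, followed the same order with 1.94, 1.62, 135.74, 0 and 20.92 FPKM. Vim, a filament protein of mesenchymal cells, was listed at 85.10 FPKM in null replicate 1 and between 1401.23 and 3405.92 FPKM in the other 4 libraries. Dcn and Thy1, genes of fibroblasts, were listed at 84.66 and 88.47 FPKM in null replicate 3 against at most 0.12 and 0.24 elsewhere. Other genes of that list were not confined to this library: Col1a1, a collagen, was listed at 161.02, 118.44, 1.11, 104.06 and 570.48 FPKM in the order wt replicates 1 and 2, null replicates 1 to 3, Pdgfrb was at 20.80 in null replicate 2 and 23.37 in null replicate 3, and Lum was at or below 0.14 FPKM in every library.

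The labelled cell type, thyroid epithelial cells, was only partly matched by its markers. Nkx2-1, a thyroid transcription factor, was listed at 9.21, 15.02, 9.26, 34.83 and 0.26 FPKM and Pax8, another, at 0.40, 0.17, 18.15, 12.78 and 2.56 FPKM in the order wt replicates 1 and 2, null replicates 1 to 3. Tg, the hormone precursor, stayed at or below 0.86 FPKM and the TSH receptor Tshr at or below 0.11 FPKM in every library. Of the 10 thyroid markers, between 1 and 3 were at 0 in a library, and their summed level was 15.26, 20.61, 35.06, 68.54 and 4.84 FPKM. The 8 epithelial markers summed to 998.34, 1622.62, 7161.23, 594.61 and 765.69 FPKM, led by Krt8 in wt and Krt18 in null, and the 10 mesenchymal and fibroblast markers to 1769.43, 3662.31, 86.69, 3020.18 and 2718.37 FPKM, led by Vim. The immune marker Cd68 ranged from 1.00 to 59.81 FPKM while Ptprc and Cd3e were not listed, and the 4 endothelial markers summed to at most 0.66 FPKM. The part of these differences in the ERBB values was not tested, and in bulk RNA fewer cells of a type and less RNA per cell cannot be told apart.

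**Figure D1:**
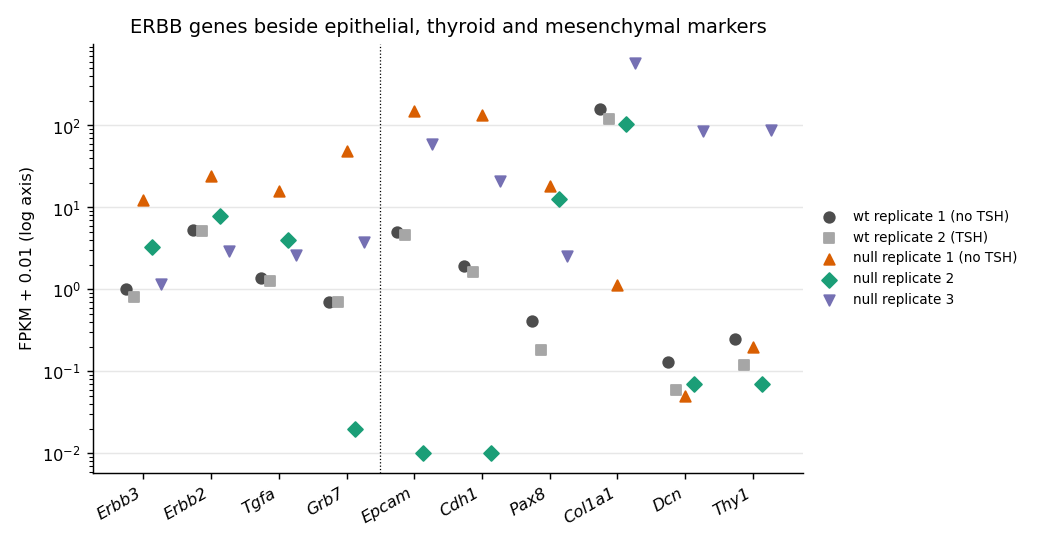
FPKM + 0.01 on a log axis of Erbb3, Erbb2, Tgfa and the adaptor Grb7 (left of the dotted line) and of epithelial, thyroid and mesenchymal markers (right), with 1 symbol per library. Erbb3, Erbb2, Tgfa, Grb7, Epcam, Cdh1 and Pax8 were highest in null replicate 1, Epcam and Cdh1 were at 0 in null replicate 2 (drawn at 0.01), and Dcn and Thy1 were high in null replicate 3 alone.

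Among the receptors, Egfr was found in every library. It was listed at 6.83 and 5.37 FPKM in wt (mean 6.1 ± 1.03 SD, n = 2) and at 11.66, 3.5 and 10.26 FPKM in null (8.47 ± 4.36, n = 3). The groups overlapped, with null replicate 2 below both wt libraries and the other null libraries above them. The log2 fold change of Egfr by edgeR was 0.33 (SE 0.61, adjusted p = 0.793), and it was -0.18 without null replicate 1.

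Erbb2, the partner receptor, was nearly equal in the wt libraries at 5.26 and 5.17 FPKM, and spread over 8.10-fold in null at 23.90, 7.76 and 2.95 FPKM. Null replicate 1 was high and null replicate 3 was lower than wt. Its log2 fold change was 0.62 (SE 0.89, adjusted p = 0.728), and it turned to -0.63 without null replicate 1.

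Erbb3, the neuregulin receptor, was the lowest of the receptors in wt, at 1.00 and 0.81 FPKM, and was listed at 12.18, 3.30 and 1.17 FPKM in null. These values amount to 13.5, 3.65 and 1.29 times the wt mean, so that null replicate 1 carried most of the difference and null replicate 3 lay next to wt. On FPKM the groups did not overlap, but in CPM after TMM they did, with 4.84 and 4.52 in wt against 45.7, 10.99 and 3.92 in null. The edgeR log2 fold change was 2.11 (SE 1.07, adjusted p = 0.330), and 0.65 without null replicate 1.

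The balance between the receptors differed from line to line. Egfr made up 52.2% and 47.3% of the summed receptor FPKM in wt, 24.4% and 24.0% in null replicates 1 and 2, and 71.3% in null replicate 3. Erbb2 made up 40.2% and 45.6% in wt and 50.1%, 53.3% and 20.5% in null. Erbb3 took 7.64% and 7.14% in wt, 25.5% and 22.7% in null replicates 1 and 2 and 8.14% in null replicate 3. Null replicates 1 and 2 thus had like shares, at summed receptor levels of 47.74 and 14.56 FPKM. Null replicate 2 had more Erbb3 than null replicate 3, at 3.30 against 1.17 FPKM. The receptor sum in the other libraries was 13.09 and 11.35 FPKM in wt and 14.38 in null replicate 3. The part of line and cell type in this balance was not tested.

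**Figure D2:**
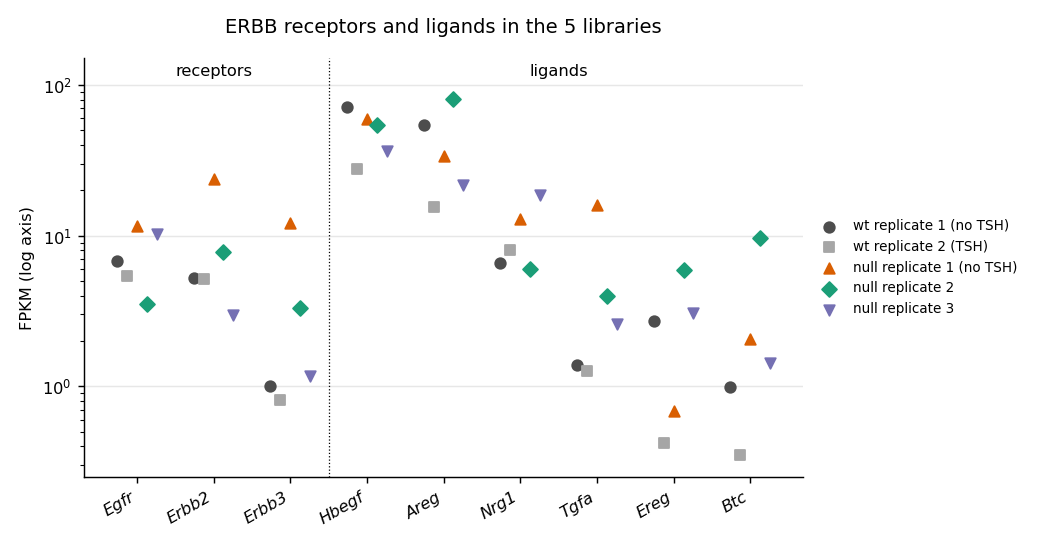
FPKM on a log axis of the 9 tested members, receptors left and ligands right of the dotted line, with 1 symbol per library. Hbegf and Areg were the highest members in every library, and the null libraries spread most for Erbb3, Ereg and Erbb2.

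The short and long Egfr transcripts were compared as levels and as shares. The short form was listed at 5.26 and 3.68 FPKM in wt and at 3.38, 0.72 and 5.73 FPKM in null, with overlap on FPKM. The long form, which encodes the kinase, was listed at 1.57 and 1.69 FPKM in wt and at 8.28, 2.78 and 4.53 FPKM in null, so that all 3 null values lay above the wt values on FPKM. In CPM after TMM, an alternative chosen after seeing the data, the long form overlapped, at 11.39 and 14.07 in wt and 46.43, 13.81 and 22.71 in null. On that scale the short form did not overlap, at 16.96 and 13.62 in wt and lower in null, at 8.42, 1.58 and 12.74. Of Egfr FPKM, the short form made up 77.0% and 68.5% in wt and 29.0%, 20.6% and 55.8% in null.

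The mean share of the short form was 72.8% ± 6.01 (SD, n = 2) in wt and 35.1% ± 18.4 (n = 3) in null. A two-sided exact permutation test gave p = 0.2 for the share and p = 0.2 for the long form's FPKM (1.63 ± 0.0849 against 5.2 ± 2.81), where 0.1 is the smallest p that 2 against 3 libraries allow. Of 254 genes whose longest listed transcript was at least 1.5 times the shortest and whose summed FPKM was at least 1 in every library, 24.4% had, like Egfr, a larger share of their shortest transcript in both wt libraries than in any null library and 5.51% a smaller one. How reads in the shared exons were divided between the forms was estimated by the authors' software and was not tested.

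**Figure D3:**
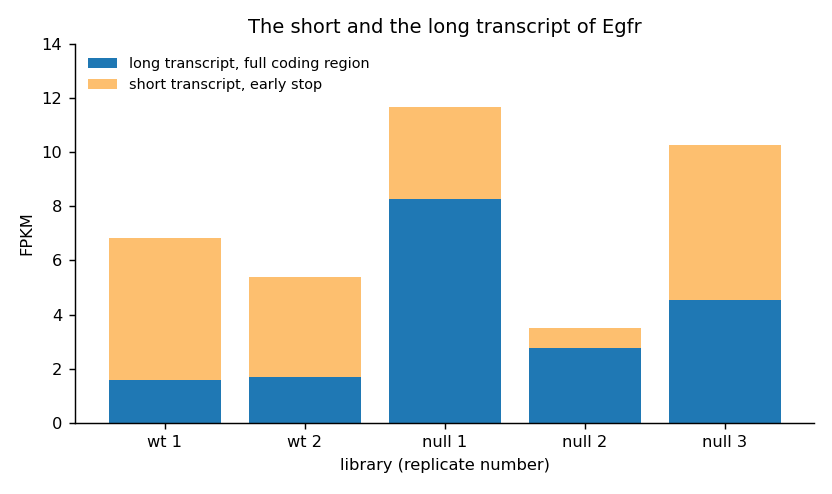
Stacked bars of the FPKM of the long (5983 bases, blue) and the short (2678 bases, orange) Egfr transcript in each library, wt replicates 1 and 2 and null replicates 1 to 3. The long form was at most 1.69 FPKM in the wt libraries and at least 2.78 FPKM in every null library. In CPM after TMM the long form overlapped between the groups, and the short form was lower in every null library than in wt.

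Transcript length moved with the contrast across all genes. The median log2 fold change of null against wt was -0.39 in the quartile of genes with the shortest transcripts (55 to 1779 bases), 0.02 and 0.45 in the middle quartiles and 1.13 in the longest (4185 to 83437 bases). In single null libraries, on log2(FPKM + 0.1) less the wt mean, the longest quartile had a median of 1.14, 1.55 and 1.28. The shortest quartile had -0.03, -0.12 and 0.21 on that scale. These medians cannot be set against the -0.39 of the edgeR fit, which was on scaled counts. Over 10661 common genes the median was 0.17 by edgeR and 0.60 on the FPKM scale. Over quartiles of GC content, from low to high, the medians were 0.84, 0.32, -0.04 and 0.00. Each gene was placed by the transcript with the highest FPKM summed over the libraries. Egfr, Erbb2 and Tgfa belonged to the longest quartile, Erbb3, Btc and Ereg to the third, Hbegf and Nrg1 to the second and Areg to the first. Set against the median of their own quartile, the log2 fold changes were -0.80 for Egfr, -0.51 for Erbb2, 0.86 for Tgfa, 1.66 for Erbb3 and 1.67 for Btc, and lay between -0.53 and 0.24 for the other tested members. Egfr was placed by its long form, which led by a narrow margin. Its short form, at 77.0% and 68.5% of Egfr FPKM in wt, falls in the second quartile (1780 to 2773 bases). The median there, 0.02, lay below the Egfr fold change of 0.33, so the sign of the relative Egfr value depended on the form chosen. The part of length in the Egfr transcripts and in the members' values was not tested.

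Among the ligands, Hbegf and Areg were the most abundant. Together they made up 91.5% and 81.0% of the summed ligand FPKM in wt and 74.7%, 84.2% and 69.4% in null. Hbegf, a heparin-binding ligand, was listed at 71.71 and 27.53 FPKM in wt and 59.51, 54.26 and 36.40 FPKM in null, and was the leading ligand in 4 of 5 libraries. Areg, amphiregulin, led in null replicate 2, with 53.93 and 15.49 FPKM in wt and 33.78, 81.30 and 21.81 FPKM in null. The wt libraries enclosed all null values of Hbegf, and for Areg null replicate 2 alone lay above both.

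The direction for Areg and Hbegf depended on the scaling and on single libraries. By edgeR on counts, null minus wt was -0.15 (SE 0.73, adjusted p = 0.925) for Areg and -0.52 (SE 0.52, adjusted p = 0.606) for Hbegf on the log2 scale, while on log2(FPKM + 0.1) with limma it was 0.44 and 0.14. Within the edgeR fit Areg became 0.78 without wt replicate 1 and 0.16 without null replicate 3, and Hbegf 0.11 without wt replicate 1. The scalings differed for all genes: over the 10661 genes common to the settings the median log2 fold change was 0.17 by edgeR and 0.60 on the FPKM scale. In wt, 14.3% and 15.0% of all counts fell on the top 10 genes of the library, against 6.93%, 8.0% and 7.92% in null.

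Tgfa, a high-affinity Egfr ligand, was low and even in wt at 1.38 and 1.26 FPKM and was listed at 15.97, 3.98 and 2.59 FPKM in null. All 3 null libraries lay above wt on FPKM, at 12.1, 3.02 and 1.96 times the wt mean, and less far above in CPM after TMM, at 63.1, 13.95 and 9.15 against 7.07 and 7.40 in wt. The log2 fold change was 1.99 (SE 0.94, adjusted p = 0.303), and it was 0.65 without null replicate 1. Tgfa was highest in the library with the most Epcam and Cdh1, as Erbb2 and Erbb3 were. The order did not hold between the other null libraries. Null replicate 2, with Epcam and Cdh1 at 0, exceeded null replicate 3 for Tgfa, for Erbb2 (7.76 against 2.95 FPKM) and for Erbb3 (3.30 against 1.17 FPKM). The part of these markers in the levels of Tgfa, Erbb2 and Erbb3 was not tested.

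Btc, betacellulin, was listed at 0.99 and 0.35 FPKM in wt and at 2.06, 9.59 and 1.43 FPKM in null, without overlap on FPKM. In CPM after TMM the lowest null value, 3.442, and the highest wt value, 3.436, were all but equal. Here null replicate 2, the library with Epcam and Cdh1 at 0, was the high one, at 14.3 times the wt mean. The log2 fold change was 2.12 (SE 1.05, adjusted p = 0.320), and it was 0.79 without null replicate 2.

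Ereg, epiregulin, was listed at 2.71 and 0.42 FPKM in wt and at 0.69, 5.91 and 3.08 FPKM in null, with overlap. Its log2 fold change of 0.48 (SE 1.05, adjusted p = 0.824) became -0.34 without null replicate 2 and -0.37 without wt replicate 2. Nrg1, the neuregulin, was listed at 6.62 and 8.05 FPKM in wt and at 12.88, 6.03 and 18.52 FPKM in null, highest in null replicate 3. Its log2 fold change was 0.17 (SE 0.61, adjusted p = 0.895), and it became -0.23 without null replicate 3. Epgn, epigen, had 2 counts in wt replicate 1 and none in the other libraries, which is under the floor of 3 counts, and was not tested.

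The summed ligand level was 137.38 and 53.1 FPKM in wt and 124.89, 161.07 and 83.83 FPKM in null. Set against the receptor sum, ligand transcripts were 10.5 and 4.68 times as abundant in wt and 2.62, 11.1 and 5.83 times in null. The lowest ratio was in null replicate 1, where the receptor sum was highest. The most abundant ligand exceeded the most abundant receptor in every library.

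Of the 9 members tested, none was called between null and wt at an adjusted p of 0.05 by the quasi-likelihood test of edgeR (Benjamini-Hochberg adjustment), and 0.0% of 13240 genes were. At an unadjusted p under 0.05, 0 members were higher and 0 lower, against 12.4% and 6.07% of all genes. DESeq2 also called 0 members, while it called 8.41% of genes higher and 3.68% lower, and limma on log2(FPKM + 0.1) called 0 members and 0.0505% of genes. The biological coefficient of variation was 0.694.

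Of the members, 7 had a log2 fold change above 0 and the remaining pair, Areg and Hbegf, below 0 by edgeR, with the reversal on FPKM given above, and 7845 of all 13240 genes were above 0 too. The median over the 9 was 0.48, against 0.29 over all genes. On FPKM, 3 members (Erbb3, Tgfa and Btc) had every null library above both wt libraries and 0 the reverse, against 35.9% and 7.22% of all genes, so the count was near the background. In CPM after TMM, the counts were 2 (Tgfa and, by the narrow margin given above, Btc) and 0, against 22.6% and 17.3%. Two-sided exact permutation tests on FPKM gave p = 0.5 for Erbb3, 0.3 for Tgfa and 0.4 for Btc, and 0.1 is the smallest p possible.

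**Figure D4:**
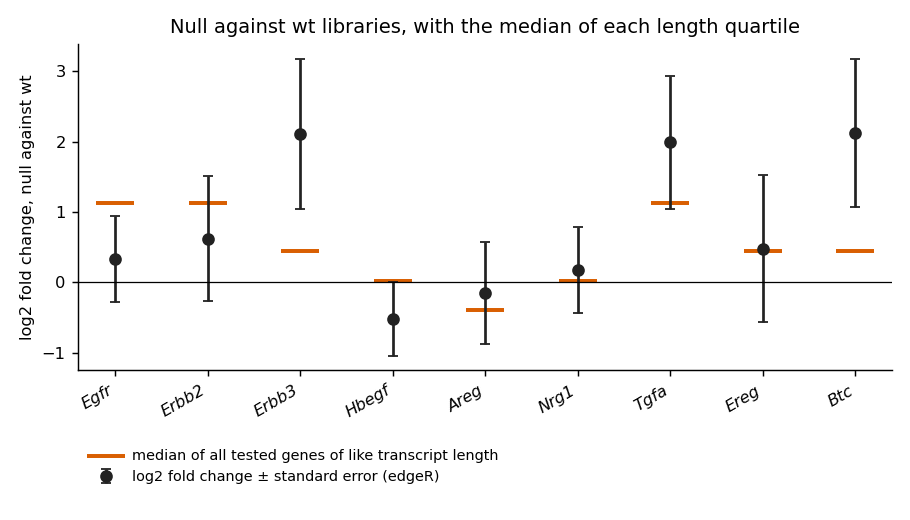
Log2 fold change of null against wt by edgeR for the 9 tested members (points, with bars of 1 standard error) and the median of all tested genes in the same quartile of transcript length (orange lines). Erbb3, Tgfa and Btc had the highest values, from 1.99 to 2.12. Erbb2 and Egfr, the latter placed by its long transcript, lay below the median of their quartile, 1.13. The short Egfr transcript falls in the second quartile, with a median of 0.02.

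The spread among the null lines was as large as the difference from wt for several members. Erbb2, Erbb3, Ereg, Tgfa and Btc, 5 of the 9, were at least 4-fold apart between the highest and lowest null library, as were 29.5% of all genes. Erbb3 spread most, over 10.4-fold, followed by Ereg (8.57-fold) and Erbb2 (8.10-fold). Hbegf was the most even, at 1.64-fold, and Nrg1, Egfr and Areg lay between 3.07-fold and 3.73-fold. Null replicate 1 was highest for Egfr, Erbb2, Erbb3, Hbegf and Tgfa, null replicate 2 for Areg, Ereg and Btc, and null replicate 3 for Nrg1.

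The wt libraries differed in TSH, with 1 library each and hence no replicate check. Areg was 3.48 times, Ereg 6.45 times, Hbegf 2.61 times and Btc 2.83 times as high without TSH as with it. In CPM the log2 ratio of TSH to no TSH was -1.80 for Areg (exact 95% counting interval -1.94 to -1.66), from 1961 and 569 counts. For Ereg it was -2.68 (-3.11 to -2.26), from 348 and 55 counts, for Hbegf -1.38 (-1.45 to -1.31), from 5283 and 2049 counts, and for Btc -1.47 (-2.10 to -0.87), from 88 and 32 counts. These 4 ligands were lower in the culture with TSH. The intervals cover counting error only.

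The receptors and the remaining ligands stayed close to each other in the wt pair. Erbb2 had a log2 CPM ratio of -0.03 (-0.17 to 0.12), Erbb3 of -0.30 (-0.69 to 0.10), Egfr of -0.23 (-0.39 to -0.07) and Tgfa of -0.13 (-0.44 to 0.18). Nrg1 had more in the culture with TSH, at 0.28 (0.10 to 0.47). In CPM after TMM the ratio was 0.48 for Nrg1, and that of Erbb2 and Tgfa turned to 0.17 and 0.07, and that of Egfr was -0.03. At least 2-fold lower with TSH on log2(FPKM + 0.1) were 4 of 9 members and 9.02% of all genes, and at least 2-fold higher were 0 members and 3.89% of genes, with a median over all genes of -0.19. The ratios compare these 2 libraries, not TSH treatment, and Tshr was listed at 0.10 and 0.02 FPKM in them.

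**Figure D5:**
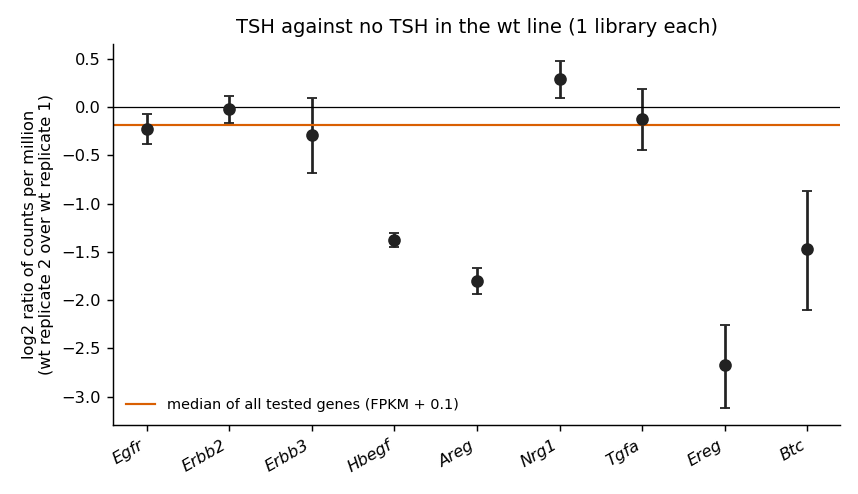
Log2 ratio of CPM in wt replicate 2 (TSH) over wt replicate 1 (no TSH) for the 9 tested members, with exact 95% counting intervals and a line at the median of all tested genes on the FPKM + 0.1 scale. Areg, Ereg, Hbegf and Btc lay below -1 and the other members between -0.30 and 0.28.

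Areg, Ereg, Btc and Epgn are neighbors on chromosome 5, in the order Epgn, Ereg, Areg, Btc, while Hbegf lies elsewhere. In null replicate 2, Areg, Ereg and Btc were all at their highest, at 81.30, 5.91 and 9.59 FPKM. In wt replicate 2 they were all at their lowest, at 15.49, 0.42 and 0.35 FPKM. The next genes on either side, chosen after their values were seen, did not share both of these extremes, although Mthfd2l was also lowest in wt replicate 2. Mthfd2l was listed at 2.32, 1.48, 4.24, 5.98 and 6.36 FPKM and Parm1 at 0.85, 0.55, 6.23, 0.26 and 8.50 FPKM in the order wt replicates 1 and 2, null replicates 1 to 3. Farther out, Odaph was also highest in null replicate 2, at 11.95 FPKM. Cxcl2 was at 9.57 and 1.99 FPKM in wt replicates 1 and 2. Neither shared both extremes, and Rchy1 shared none. Beside Erbb2, also chosen after the values were seen, Grb7, an adaptor of ERBB receptors, was listed at 0.69 FPKM in both wt libraries and at 48.45, 0.01 and 3.82 FPKM in null, and Pgap3 at 2.96, 2.48, 7.68, 2.76 and 0.89 FPKM. Both were highest in null replicate 1, as Erbb2 was, while Mien1, between Erbb2 and Grb7, was not set apart there, at 99.97 FPKM against 83.99 and 113.49 in wt. Reads of overlapping neighbors cannot be told apart where the counting did not use strand, which the sources used here did not give.

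The genes with the levels most like each receptor over the 5 libraries were named by the root mean square difference of centered log2(FPKM + 0.1) among 10827 genes. For Egfr these were Atp6v0b (0.103), Atp6v1f (0.11) and Prpf40b (0.115). For Erbb2 they were Eme2 (0.156), 2200002D01Rik (0.166) and Myo18a (0.168), and for Erbb3 Arhgap27 (0.173), Zmiz2 (0.209) and Abca3 (0.233).

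The wider ERBB pathway was described from lists of 41 genes, of which 40 were listed and 38 tested. None passed the adjusted threshold by edgeR, 10 were higher and 0 lower in null at an unadjusted p under 0.05 (12.4% and 6.07% of all genes), and DESeq2 called 5 (Adam10, Lrig3, Nrg2, Ptprj and Sos1), all higher, against 8.41% of all genes. Nrg2, with no counts in wt, passed the filter on low counts only through null and had to differ, and Lrig3 had 8 and 0 counts in wt, so these counts of calls are no support for the list. The median of the 38 log2 fold change was 0.65 against 0.29 over all genes, and 22 of 38 belonged to the longest quartile of transcripts, whose own median was 1.13. On FPKM 22 had every null library above wt and 0 the reverse (35.9% and 7.22% of all genes), and in CPM after TMM 17 and 3 (22.6% and 17.3%). Of the ERBB family outside the members, Erbb4 was not listed and Nrg2, a neuregulin, had no counts in wt and 142, 10 and 14 counts in null.

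Among the 8 sheddases and their regulators, which release the ligands, the median log2 fold change was 0.41 and 2 were higher at an unadjusted p under 0.05, as were 12.4% of all genes. Adam10 was listed at 3.21 and 3.18 FPKM in wt and 12.41, 19.24 and 14.34 FPKM in null (log2 fold change 1.67, adjusted p = 0.191 by edgeR). Adam9 was listed at 8.88 and 3.91 FPKM in wt and 13.55, 35.08 and 31.87 in null (adjusted p = 0.250), and Adam12 had a log2 fold change of 1.18 (adjusted p = 0.379). Adam17, the protease best known for releasing Areg, Tgfa and Hbegf, overlapped between the groups, at 8.32 and 6.31 FPKM in wt and 4.41, 13.45 and 9.71 in null (-0.27, adjusted p = 0.806).

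Of 17 adaptors and relays, 5 were higher and 0 lower in null at an unadjusted p under 0.05, beside 12.4% and 6.07% of all genes, and the median of the 17 was 0.64. Sos1, an exchange factor that activates RAS, was listed at 0.18 and 0.16 FPKM in wt and 2.41, 1.68 and 4.13 in null (log2 fold change 3.41, adjusted p = 0.180 by edgeR). Sos2, Pik3r1 and Pik3ca, the last 2 being subunits of PI3 kinase, had log2 fold changes of 1.94, 1.72 and 1.36 (adjusted p = 0.235, 0.232 and 0.248).

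Of 12 inhibitors and turnover genes, 2 were higher and 0 lower at an unadjusted p under 0.05, near the 12.4% and 6.07% of all genes, and the median was 0.51. Ptprj, a receptor phosphatase, was listed at 0.23 and 0.07 FPKM in wt and 4.10, 4.62 and 2.02 in null (log2 fold change 4.17, adjusted p = 0.180 by edgeR). Lrig3 was listed at 0.06 and 0 FPKM in wt and 0.96, 2.43 and 5.69 in null (5.99, adjusted p = 0.191), and its wt counts were 8 and 0. The ubiquitin ligases Cbl and Cblb, which drive receptor turnover, had 1.73 (adjusted p = 0.283) and 1.12 (adjusted p = 0.362). Of these 12 named genes of the last 3 lists, 10 belonged to the longest quartile of transcripts. Relative to the median of their own length quartile, the log2 fold changes were smaller, at -0.01 for Cblb, 0.05 for Adam12, 0.23 for Pik3ca, 0.54 for Adam10, 0.59 for Pik3r1, 0.61 for Cbl and 0.81 for Sos2. That of Adam17 was -1.40, and values above 1 were found for Adam9 (1.04), Sos1 (2.28), Ptprj (3.04) and Lrig3 (5.53).

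In the wt culture with TSH, 3 of 38 pathway genes were at least 2-fold lower and 0 higher, which is near the 9.02% and 3.89% of all genes. Errfi1, a feedback inhibitor of Egfr, chosen after its values were seen, was listed at 185.72 FPKM without and 83.29 with TSH, a log2 ratio of -1.16, and at 16.00, 194.16 and 85.38 FPKM in null. The others were Socs4, at -1.25, and Adam9, at -1.16. Errfi1 was lowest in null replicate 1, where Erbb2, Erbb3 and Tgfa were highest.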

How the data were processed

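RNA of 5 cultures was sequenced with the TruSeq RNA kit. The authors deposited 1 table per library with an estimated count and an FPKM for each transcript listed from FPKM 0.01 up; the aligner, counter, annotation and genome build were not given in the sources used here. Deposited FPKM values (scaled for length and depth by the authors) were summed per gene, and deposited estimated counts were summed and rounded. Symbols were matched to RefSeq for 17866 of 17923 genes. The samples were grouped by the GEO titles. Null was compared with wt by edgeR 4.0.16 in R 4.3.3 (TMM, filterByExpr, glmQLFTest, Benjamini-Hochberg adjustment) on 13240 genes. This fit was checked on simulated data with less spread between libraries than the real ones had, so the check does not cover their spread. Single members were compared by a two-sided exact permutation test on FPKM. Alternatives were DESeq2 1.42.0, RLE factors, other filters, limma 3.58.1 on log2(FPKM + 0.01, 0.1 or 1), a replicate block and leaving out each library. TSH was compared as a ratio, with 0.1 added to FPKM. Depth was 29360002 to 30713079 counts, so 3 counts were at most 0.102 CPM.

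The members and the lists were chosen with earlier results of these data known. Named were all members, and of each pathway list up to 4 genes with the lowest unadjusted p and a mean FPKM of at least 1. Promoter sequences were RefSeq's (GRCm38.p6) and the Egfr models GENCODE M21. The study describes 3 biological replicates and the labels here give 2 wt libraries. Some single marker genes are not reported here.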

Additional observations from a re-analysis of the deposited data

How the results depend on the processing

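No member was called under any setting, leaving out each library included, where the number of genes called was also 0 to 0 in both directions and that of pathway genes 0 to 0. Genes called higher and lower were 1113 and 487 by DESeq2 (pathway genes 5), 0 and 4 without a filter on low counts, 0 and 1 with at least 10 counts in every library, and by limma on log2(FPKM + 0.1), log2(FPKM + 0.01) and log2(FPKM + 1) 1 higher in each and 5, 3 and 7 lower; the cause was not tested. Erbb3, Tgfa and Btc kept a log2 fold change above 0 in 13 of 13 alternatives, from 0.65 to 2.53, 0.65 to 2.34 and 0.79 to 2.81, with adjusted p of 0.195 to 0.841, 0.174 to 0.841 and 0.180 to 0.853. Leaving out single libraries, log2 fold changes ranged from -0.18 (without null replicate 1) to 0.60 for Egfr, -0.63 (without null replicate 1) to 1.02 for Erbb2, -0.89 to 0.78 (without wt replicate 1; 0.16 without null replicate 3) for Areg, -0.37 (without wt replicate 2; -0.34 without null replicate 2) to 2.12 for Ereg, -1.09 to 0.11 (without wt replicate 1) for Hbegf and -0.23 (without null replicate 3; -0.11 without wt replicate 1) to 0.43 for Nrg1, and so reversed. By limma with 0.1, 0.01 and 1 added, Areg was 0.44, 0.44 and 0.42 and Hbegf 0.14, 0.14 and 0.13, and the log2 ratio of mean CPM after TMM was -0.15 for Areg and -0.52 for Hbegf where that of mean FPKM was above 0. Relative to the median of its transcript-length quartile, an alternative chosen after seeing the data, Egfr was -0.80, Erbb2 -0.51 and Areg 0.24. The Egfr value held for its long transcript. The short Egfr transcript falls in the second quartile, whose median of 0.02 lay below the Egfr fold change of 0.33. With a replicate block the log2 fold change was 0.30 for Areg and -0.29 for Nrg1, and 0 genes were called; libraries of the same number correlated at -0.11 and -0.11 in their deviations, which gave no sign of pairing, although both libraries numbered 1 were labelled as without TSH. In the wt pair Areg, Ereg, Hbegf and Btc stayed lower with TSH on each scale tried, and with 1 added to FPKM Ereg was -1.39 and Btc -0.56. Depth limits Epgn, at 2 counts, and the wt values of Lrig3, at 8 and 0 counts, and Nrg2, at 0.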
